A study of Mus musculus with 3 samples.

Results

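Steady-state mature dendritic cells were taken from the Peyer's patches of untreated mice and described gene by gene. They were selected on measured UMI counts in the untreated (Control) library, and 299 of its 5344 cell barcodes met the gate. All 3 libraries together held 15526 cell barcodes. A cell had to show at least 500 genes and at most 10% of its UMIs (unique molecular identifiers, each counting 1 transcript molecule) from mitochondrially encoded genes. Per 10000 UMIs it had to hold under 40 UMIs of Lyz1, C1qa, C1qb and C1qc together and at least 15 of Ccr7 and Fscn1 together. It also had to hold under 3 UMIs of Il12b, under 3 of Cd79a and under 4 of the cell-cycle genes Mki67, Top2a, Birc5 and Ube2c together. Control cells that met every step but had under 15 Ccr7 and Fscn1 UMIs per 10000 are called resting dendritic cells, and 2545 were found. The same mature gate held 2697 cells of the CpG library and 2160 cells of the R848 library.

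Dendritic cells take up antigen in tissue and, on maturation, turn on the chemokine receptor Ccr7 and migrate to T cell zones. Maturation follows microbial signals, but a share of dendritic cells also matures in tissue that has met no deliberate stimulus. Such cells carry antigen to T cells as well, and are best known for their part in tolerance. In Peyer's patches, the lymphoid follicles of the small intestine, conventional dendritic cells exist as a type 1 that expresses Xcr1 (cDC1) and a type 2 that expresses Sirpa (cDC2), beside LysoDC, monocyte-derived cells rich in lysozyme.

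All animals were female C57BL/6Rj mice, and no source used here gives their age. Control mice received no treatment and no mock injection. The other mice received 125 µg of CpG, a DNA ligand of the Toll-like receptor TLR9, or 10 µg of R848, a small-molecule ligand of TLR7, by intraperitoneal injection, and patches were collected after 9 h. Each library pooled 12 mice, with 88 patches for Control, 85 for CpG and 90 for R848. Patches were digested with collagenase II and DNase I at room temperature, CD11c+ cells were enriched with magnetic beads, and live cDC1, cDC2, LysoDC and macrophages were sorted from them. Stains for CD11c, MHC class II, SIRPa, Bst2, CD4, CD11b, XCR1 and CD24 were used, so the gates of that sort can set the shares of cells described here.

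Each group had 1 library and no replicate, so no difference was tested. Treatment, pool of mice and library cannot be told apart. Levels are CPM, the UMIs of a gene summed over the cells of a group and scaled to 1000000 UMIs in all. All intervals, given in parentheses, are exact 95% intervals that cover counting error only: Poisson for a level, conditional binomial for a ratio, and Clopper-Pearson for a share. A gene was measured where it reached 20 CPM in 1 of the groups compared, and was counted as higher or lower where the ratio, with 5 CPM added to both levels, passed 2-fold.

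The libraries held between 43537067 and 46556726 UMIs. The mature Control cells summed to 1613002 UMIs, against 17071081 in resting Control cells, 16927708 in mature CpG cells and 12850461 in mature R848 cells, so levels in the mature Control cells carry the widest intervals. Their median depth was 4886 UMIs and 1493 genes per cell, below the 6313 UMIs and 1851 genes of resting cells and the 5671 and 5363 UMIs of mature CpG and R848 cells. Free RNA, put from C1qa, C1qb and C1qc, complement genes that the gate also uses, came to 4.03% of UMIs in mature Control cells, 3.85% in resting cells, 2.51% with CpG and 2.47% with R848. A doublet score marked 6 of the 299 mature Control cells. Control shared 42 barcodes with CpG and 33 with R848, CpG and R848 shared 35, and none was in all 3.

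The label was checked against markers. Flt3, the growth factor receptor of dendritic cells, stood at 148 CPM (129 to 168) in mature Control cells and 151 CPM (145 to 157) in resting cells. Zbtb46, a transcription factor of conventional dendritic cells, stood at 29.8 and 31.4 CPM, and Cd74, the MHC class II invariant chain, at 32144 and 40692 CPM. Of the 6 markers of any conventional dendritic cell, Itgax, which encodes CD11c, was at least 2-fold lower in mature cells, and none was higher. The 6 markers summed to 43278 CPM in mature and 54903 CPM in resting Control cells. The 3 markers given with the gate that it does not use, Nudt17, Cacnb3 and Ccl22, each reached 20 CPM in mature Control cells. Ccl22 also did so in resting cells, at 32.6 CPM. These markers were chosen with earlier results of these data known, so their levels are a description and cannot check the label. None of the 7 B cell markers, 6 neutrophil markers, 5 mast cell or basophil markers or 6 stromal or endothelial markers reached 20 CPM there, with summed levels of 30.4, 1.86, 1.86 and 14.9 CPM, though the B cell list holds Cd79a, which the gate limits. Of other classes, 4 of 8 plasmacytoid dendritic cell markers reached 20 CPM (summed level 578 CPM), 3 of 8 macrophage markers, 1 of which the gate limits (329 CPM), and 1 each of the T or NK cell (203 CPM, nearly all Klrd1), type 3 innate lymphoid (92.4 CPM), epithelial (67.0 CPM, mostly Epcam) and plasma cell (58.9 CPM) markers. The 8 dissociation stress genes summed to 1230.0 CPM in mature and 1877 CPM in resting Control cells, and the 8 proliferation genes, 4 of which the gate uses, to 62.6 and 88.7 CPM. The 8 LysoDC markers, 4 of which the gate limits in every group, summed to 4953 CPM in mature Control cells, 8521 CPM in resting cells, 1229 CPM with CpG and 1254 CPM with R848, and most of this was Lyz2, which is lysozyme 2. Free RNA was put at 1193 of the 3954 CPM of Lyz2 in mature Control cells, and the part of the remaining lysozyme in the results was not tested.

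Mature cells made up 10.5% (9.41 to 11.7) of the Control cells that passed every other step of the gate. The same share was 82.3% (80.9 to 83.5) in the CpG library and 79.7% (78.1 to 81.2) in the R848 library. Cells over the threshold also lay nearer to it in Control: the median of Ccr7 and Fscn1 together was 41.4 UMIs per 10000, with a range of 15.2 to 172, against medians of 98.3 with CpG and 72.4 with R848. These 2 genes chose the cells, so their levels are a description. Without the step on Il12b, which encodes a subunit of interleukin 12 and interleukin 23, the Control gate would have held 338 cells. That step removed 39 of them, or 11.5% (8.33 to 15.4), against 121 of 2818 cells (4.29%, 3.58 to 5.11) with CpG and 46 of 2206 (2.09%, 1.53 to 2.77) with R848.

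**Figure D1:**
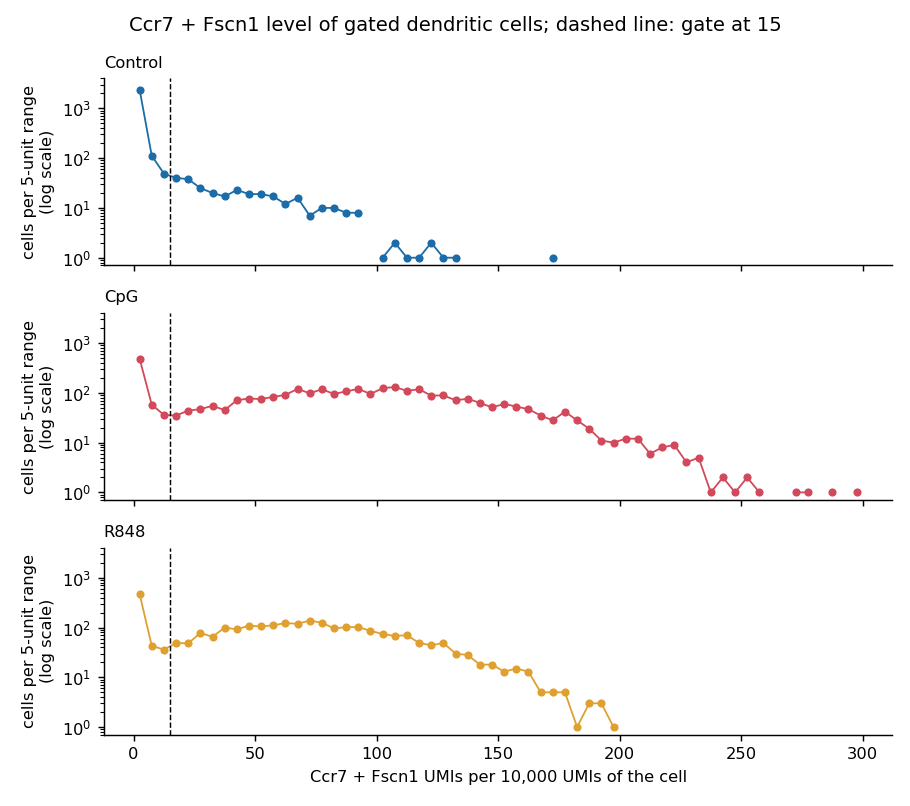
Number of cells (y axis, log scale) in each range of 5 of Ccr7 and Fscn1 UMIs together per 10000 UMIs (x axis), over the cells that passed the other gate steps, with 1 panel each for Control, CpG and R848; the dashed line marks the gate at 15, and empty ranges have no point. Most Control cells lie left of the line and most CpG and R848 cells right of it, where mature Control cells have the lowest median (41.4 against 98.3 and 72.4).

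The first comparison asks how dendritic cells that matured without treatment differ from resting dendritic cells of the same library. Their leading genes were those of the mature dendritic cell state. Nudt17, which encodes a Nudix hydrolase (mm10 chromosome 3, 96706067 to 96708562, minus strand), stood at 284 CPM (259 to 311) in mature cells and 2.46 CPM (1.77 to 3.33) in resting cells, a ratio of 115 (84.0 to 162). Cacnb3, a calcium channel subunit (chromosome 15, 98630840 to 98644529, plus strand), stood at 222 CPM (200 to 246) and 3.63 CPM (2.78 to 4.66). Both genes were close to absent from resting cells. At least 1 Nudt17 UMI was found in 52.5% (46.7 to 58.3) of mature Control cells, or 37.8% after each cell was thinned to 2000 UMIs. In lysozyme- or C1q-high Control cells, which are deeper (median 10088 UMIs) and should lack the gene, 1.46% had a UMI, or 0.794% after thinning.

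Of 4805 genes measured, 431 were at least 2-fold higher and 587 at least 2-fold lower in mature than in resting Control cells, which is 8.97% and 12.2%. Among 24 measured members of a list of mature dendritic cell genes, 21 were higher and none lower, with a median log2 ratio of 2.75 against -0.15 over all genes measured. The list was drawn from known maturation genes that travel with Ccr7, so its direction is fixed in part by the gate. Besides Nudt17, Cacnb3 and the chemokines Ccl5 and Ccl22, the 10 highest log2 ratios held Tnfrsf4, the receptor OX40, Socs2, a feedback inhibitor of cytokine signalling, Gadd45b, a stress response gene, Ankrd33b, Lad1 and Glipr2. Tnfrsf4 stood at 149 CPM (131 to 170) against 1.82 CPM (1.23 to 2.58), and Socs2 at 481 CPM (448 to 516) against 19.4 CPM (17.4 to 21.7). Il4i1, a secreted amino acid oxidase that restrains T cells, was detected in 94.98% (91.9 to 97.2) of mature Control cells and in 33.3% of resting cells. These shares were 87.3% and 17.0% after thinning, and the lysozyme- or C1q-high cells were at 79.3%, or 41.4% after thinning, so a part of those other cells also held the gene.

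**Figure D2:**
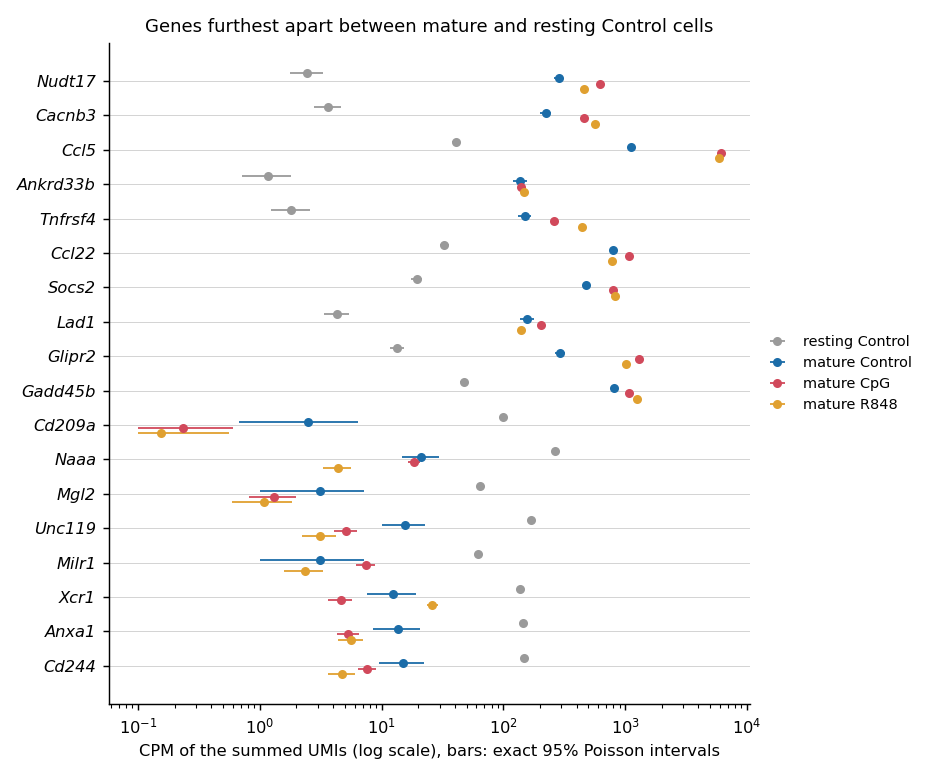
Levels in CPM (x axis, log scale) of the 18 genes with the highest and lowest log2 ratios between mature and resting Control cells, with 1 point per group (resting Control, mature Control, mature CpG and mature R848) and exact 95% Poisson intervals as bars, cut off at 0.1 CPM. Nudt17 and Ankrd33b lie over 100-fold above resting cells in mature Control cells (284 against 2.46 CPM for Nudt17), while Cd209a, Naaa and Xcr1 lie over 10-fold below them.

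Chemokine genes were among the highest of this state. Ccl5, which attracts T cells and monocytes, stood at 1119.7 CPM (1069 to 1172) in mature and 40.6 CPM (37.6 to 43.7) in resting cells, a ratio of 27.6 (25.3 to 30.1). Ccl22, which attracts regulatory T cells, stood at 796 CPM (753 to 841) and 32.6 CPM (29.98 to 35.5). Cxcl16 was the third of 6 measured chemokines to pass 2-fold, at 853 CPM (809 to 899) against 289.96 CPM (282 to 298), and no chemokine was lower. Among 8 measured cytokines, Il6, Il15 and Il1rn were higher and Ltb was lower. Il6 stood at 45.9 CPM (36.0 to 57.6) against 5.51 CPM (4.45 to 6.74), and 14.0% (10.3 to 18.5) of mature Control cells held a UMI of it, against 2.91% of resting and 1.63% of lysozyme- or C1q-high cells. Interleukin 10 had no UMI in the mature Control cells, where 3 UMIs would be 1.86 CPM.

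Most genes on a list of costimulatory and inhibitory ligands and receptors were higher. Of 17 measured members of that list 12 were higher, with a median log2 ratio of 1.67, and Havcr2 and Lgals9 were lower. Cd40, the receptor through which T cells license dendritic cells, stood at 275 CPM (250.3 to 302) against 79.8 CPM (75.6 to 84.1). Tnfsf9, the 4-1BB ligand, had a ratio of 10.2 (8.14 to 12.8), and Fas, a death receptor, one of 20.1 (15.8 to 25.8). The classical costimulators differed less: Cd86 had a ratio of 1.41 (1.26 to 1.58) and Cd80 one of 1.77 (1.37 to 2.25). Some inhibitory molecules were higher too. Cd200, which signals to an inhibitory receptor on myeloid cells, had a ratio of 8.42 (7.12 to 9.95), Pdcd1lg2, or PD-L2, one of 3.61 (2.98 to 4.35), and Cd274, or PD-L1, one of 2.71 (2.30 to 3.18). On a list of 12 measured genes known from tolerance, 7 were higher and none lower. Of the 7, Il4i1, Socs2 and Ccl22 are also on the list of mature dendritic cell genes, whose direction is fixed in part by the gate. Pdcd1lg2 and Cd274 were already counted above, so this count is not a separate result. Aldh1a2, the enzyme that makes retinoic acid from retinal and marks gut-homing instruction, stood at 139 CPM (122 to 159) against 18.6 CPM (16.6 to 20.8), but Tgfb1 stood at 132 CPM (115 to 151) against 250.1 CPM (243 to 258).

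Genes of the NF-kB pathway, which drives the maturation programme, and of cell survival were also higher. Of 20 NF-kB subunits and feedback genes 10 were higher and none lower, with a median log2 ratio of 0.997. Relb, the subunit of the noncanonical branch, stood at 919 CPM (873 to 967) against 252 CPM (244 to 259), and its partner Nfkb2 had a ratio of 2.69 (2.40 to 3.004). Map3k14, the kinase that starts this branch, was among the 10, as were Traf1, Birc2 and Birc3, which carry signals of TNF receptors. Of 16 survival and death genes 11 were higher and none lower, with a median of 1.35. They included Bcl2l1, which encodes the survival protein Bcl-xL, with a ratio of 7.96 (6.05 to 10.4), and its opponent Bcl2l11, or Bim, with one of 5.06 (3.98 to 6.39). The near-identical copies Bcl2a1a, Bcl2a1b and Bcl2a1d were among the 11, and reads may have been split between them. Over all genes measured, 8.97% were higher and 12.2% lower, with a median of -0.15. Traf1, Birc2 and Birc3 are in both the NF-kB and the survival counts, so these are not separate results. Fas was also counted with the costimulatory and inhibitory molecules, and Relb with the mature dendritic cell genes.

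Genes of antigen capture were lower. Of 11 measured uptake receptors, 9 were at least 2-fold lower, and Ly75 and Timd4 were higher. The lectin receptor Cd209a was at 2.48 CPM (4 UMIs, 0.676 to 6.35) against 100.05 CPM (95.4 to 105), and Mgl2 at 3.10 CPM (1.01 to 7.23) against 64.7 CPM (61.0 to 68.7). Ly75, which encodes the endocytic receptor DEC-205, stood at 117 CPM (101 to 135) against 16.9 CPM (15.03 to 19.0). Of 6 measured Toll-like receptors and adaptors, Tlr3, Irak2 and Unc93b1 were lower and none higher, and Tlr3 is also a cDC1 marker. Among these, Unc93b1, the chaperone that carries TLR7 and TLR9 to endosomes, stood at 174 CPM (154 to 195) against 377 CPM (368 to 386). Genes that tell the 2 lineages apart were lower as well: Xcr1 stood at 12.4 CPM (7.57 to 19.1) against 137 CPM (131 to 142), and 10 of 11 measured cDC1 markers and 6 of 9 measured cDC2 markers were at least 2-fold lower. These counts overlap with that of the uptake receptors and are not separate results. Cd209a, Mgl2, Clec10a, Clec4a2 and Clec4a4 are in both the uptake and cDC2 counts, and Clec9a is in the uptake and cDC1 counts.

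The medians of antigen presentation genes differed by class. Of 14 genes of MHC class II presentation, 3 were lower (H2-DMa, H2-DMb1 and March1) and H2-Eb2 was higher, with a median log2 ratio of -0.67. Over all genes measured, 12.2% were lower and 8.97% higher, with a median of -0.15. H2-Ab1, a class II chain, stood at 10559 CPM (10401 to 10719) against 16492 CPM (16432 to 16553). March1, the ubiquitin ligase that removes class II molecules from the surface of resting dendritic cells, stood at 9.92 CPM (5.67 to 16.1) against 73.0 CPM (69.0 to 77.2). Of 22 genes of class I presentation 6 were higher and none lower, with a median of 0.47. The largest ratio among them was that of the class I-like gene H2-M2, at 172 CPM (153 to 194) against 11.0 CPM (9.49 to 12.7), and H2-Q4, H2-Q6 and H2-Q7 are near-identical genes whose reads may have been split.

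Interferon-stimulated genes, which type I interferon turns on, mostly stayed within 2-fold in untreated mice, with more members higher than lower. Of 19 measured, 5 were higher (Isg15, Mx1, Usp18, Phf11b and Gbp2) and 2 lower (Ly6e and Ifi205). Over all genes measured, 8.97% were higher and 12.2% lower. The median log2 ratio of the list was 0.39, against -0.15 over all genes. Isg15, a ubiquitin-like protein, stood at 164 CPM (145 to 185) against 48.0 CPM (44.7 to 51.4), while Irf7, the factor that amplifies the interferon response, stood at 21.1 CPM (14.6 to 29.5) against 14.9 CPM (13.2 to 16.9). Genes of glycolysis had 1 of 14 members lower (Hk2) and none higher, and no ribosomal protein gene of 22 passed 2-fold.

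The mature Control cells were not uniform, and their genes were laid out along Ccr7 and Fscn1 together, from 103 cells at 15 to 30 UMIs per 10000 through 115 cells at 30 to 60 to 81 cells at 60 and over. The ranges come from the gate genes and these levels are a description. Nudt17 stood at 85.2, 328 and 497 CPM over the 3 ranges, Apol7c, an apolipoprotein L gene, at 807, 1967 and 3815 CPM, and Aldh1a2 at 40.1, 88.5 and 342 CPM. Ccl5 stood at 316 CPM in the lowest range and at 1562 and 1635 CPM in the other two. In the opposite direction, H2-Ab1 stood at 13528, 10232 and 6939 CPM, the lactate dehydrogenase gene Ldha at 684, 434 and 269 CPM, and Il1r2, a decoy receptor of interleukin 1, at 244, 187 and 103 CPM. Not every gene followed the gradient. Relb stood at 871, 946 and 949 CPM, and the cytokine Il1b was at 1412 and 1581 CPM before 748 CPM in the highest range. Lyz2 stood at 6502, 2925 and 1826 CPM in the same ranges, and its part in the gradient was not tested.

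**Figure D3:**
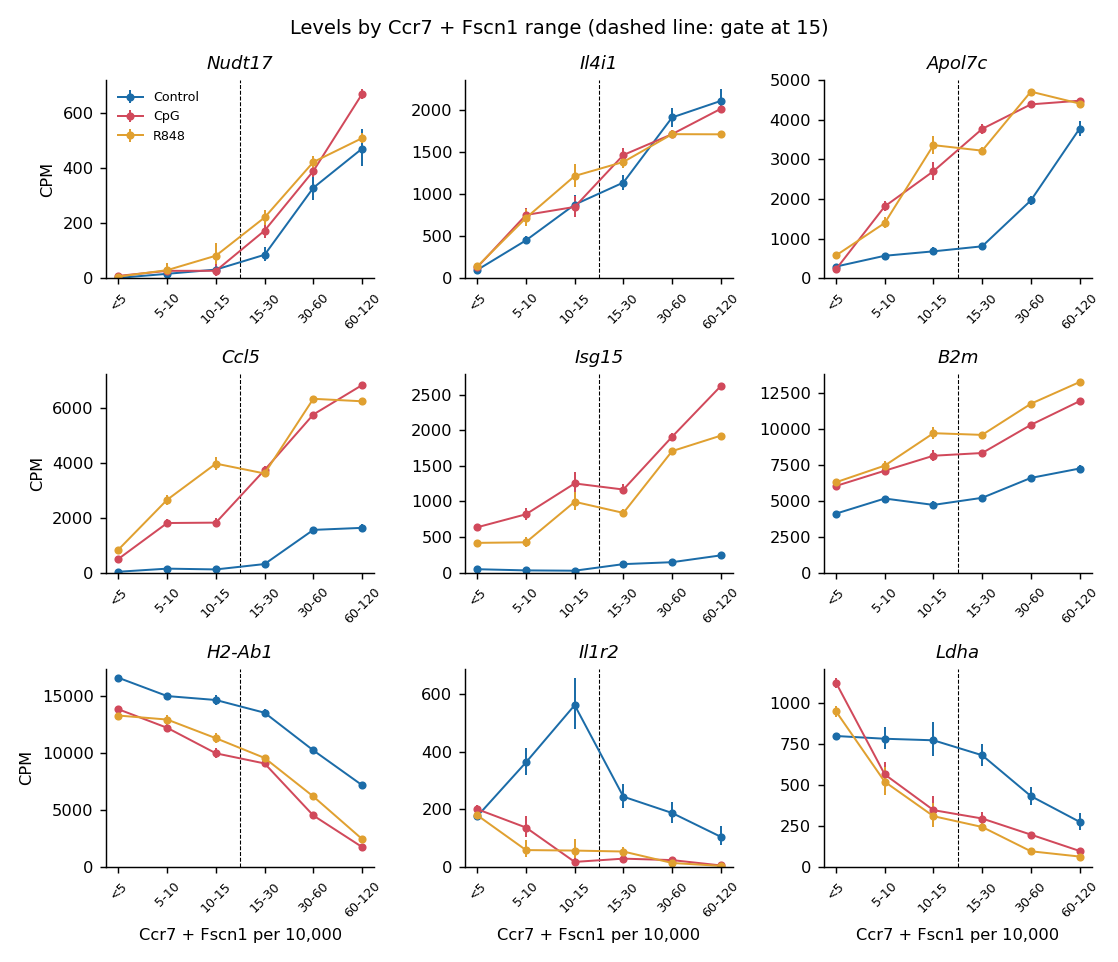
Levels in CPM (y axis) of 9 genes over ranges of Ccr7 and Fscn1 together per 10000 UMIs (x axis), for cells of the Control, CpG and R848 libraries that passed the other gate steps, with exact 95% Poisson intervals as bars; the dashed line marks the gate at 15. In Control, Nudt17 and Apol7c are highest and H2-Ab1 and Il1r2 lowest at 60 to 120, and Isg15 is at most 243 CPM.

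Levels on either side of the threshold were compared without a test. Just inside it, 40 Control cells had 15 to 20 UMIs of Ccr7 and Fscn1 per 10000, and just outside it 49 had 10 to 15. Nudt17 stood at 83.0 CPM inside and 31.6 CPM outside, Relb at 887 and 747 CPM, and H2-Ab1 at 13106 and 14644 CPM. Ccl22 ran the other way, at 275 CPM (211 to 352) inside and 705 CPM (611 to 809) outside, as did Il1r2, at 236 and 561 CPM.

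Few mature cells could be assigned to a lineage from their counts. A cell was called cDC1-marked where it had a UMI of Xcr1, Clec9a, Cadm1, Tlr3 or Snx22 and none of Sirpa, Cd209a, Mgl2, Clec10a or Itgam, and cDC2-marked in the reverse case. Of the 299 mature Control cells, 31 were cDC1-marked (10.4%, 7.15 to 14.4), 73 cDC2-marked (24.4%, 19.7 to 29.7), 11 carried both marks and 184 neither (61.5%, 55.8 to 67.1). After thinning to 2000 UMIs per cell, which left out none, neither mark was found in 82.9% of mature and 52.6% of resting Control cells. Expression differed between the marked cells. Apol7c stood at 5378 CPM (5067 to 5702) in cDC1-marked and 915 CPM (827 to 1008) in cDC2-marked mature cells, and Aldh1a2 at 255 CPM (191 to 334) and 63.5 CPM (42.2 to 91.8). Higher in cDC2-marked cells were H2-M2, at 272 CPM (226 to 326) against 33.7 CPM (13.5 to 69.4), and Isg15, at 195 CPM (156 to 241) against 33.7 CPM (13.5 to 69.4). Relb, at 968 and 869 CPM, and Cd83, a surface marker of mature dendritic cells, at 920 and 953 CPM, had overlapping intervals in the 2 kinds of cell. Lyz2 also differed, at 1897 CPM in cDC1-marked and 6257 CPM in cDC2-marked cells, and its part in these differences was not tested.

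Transcripts of the chemokines Ccl5 and Ccl17 were concentrated in a few cells. At 2000 UMIs per cell, the ratio of variance to mean (Fano factor) had a median of 1.097 over 2158 genes, and the 10 highest were those of Malat1, Actb, Lyz2, Cst3, Ccl5, Cd74, Ccl17, Fth1, Apol7c and Il1b. Ccl5 had a ratio of 18.3 and was found in 99 of the 299 thinned cells (33.1%), and the 15 highest cells held 53.8% of its UMIs. Ccl17, which attracts T cells through Ccr4, had a ratio of 15.7 and was found in 36 of 299 cells, with 86.0% of its UMIs in the 15 highest cells. In mature CpG cells Ccl5 was found in 92.1% of thinned cells, and the highest 5% of cells held 22.2% of its UMIs.

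The second comparison sets the mature cells of untreated mice against cells that passed the same gate 9 h after CpG or R848. Both treated groups are compared with the same 299 Control cells. Of 4493 genes measured with CpG, 396 were at least 2-fold higher (8.81%) and 270 lower (6.01%) than in mature Control cells. With R848, 265 of 4370 were higher (6.06%) and 306 lower (7.0%). Of the core genes of the mature state, 5 of 24 measured were higher with CpG and 7 of 25 with R848, and Cd83 was lower with CpG. Il4i1 stood at 1663 CPM (1601 to 1728) in Control, 1876 CPM (1856 to 1897) with CpG and 1669 CPM (1647 to 1692) with R848. Ccl5 was among the higher ones, at 6073 CPM (6036 to 6110.5) with CpG and 5950.4 CPM (5908 to 5993) with R848 against 1119.7 CPM in Control, ratios of 5.42 (5.18 to 5.69) and 5.31 (5.07 to 5.57).

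**Figure D4:**
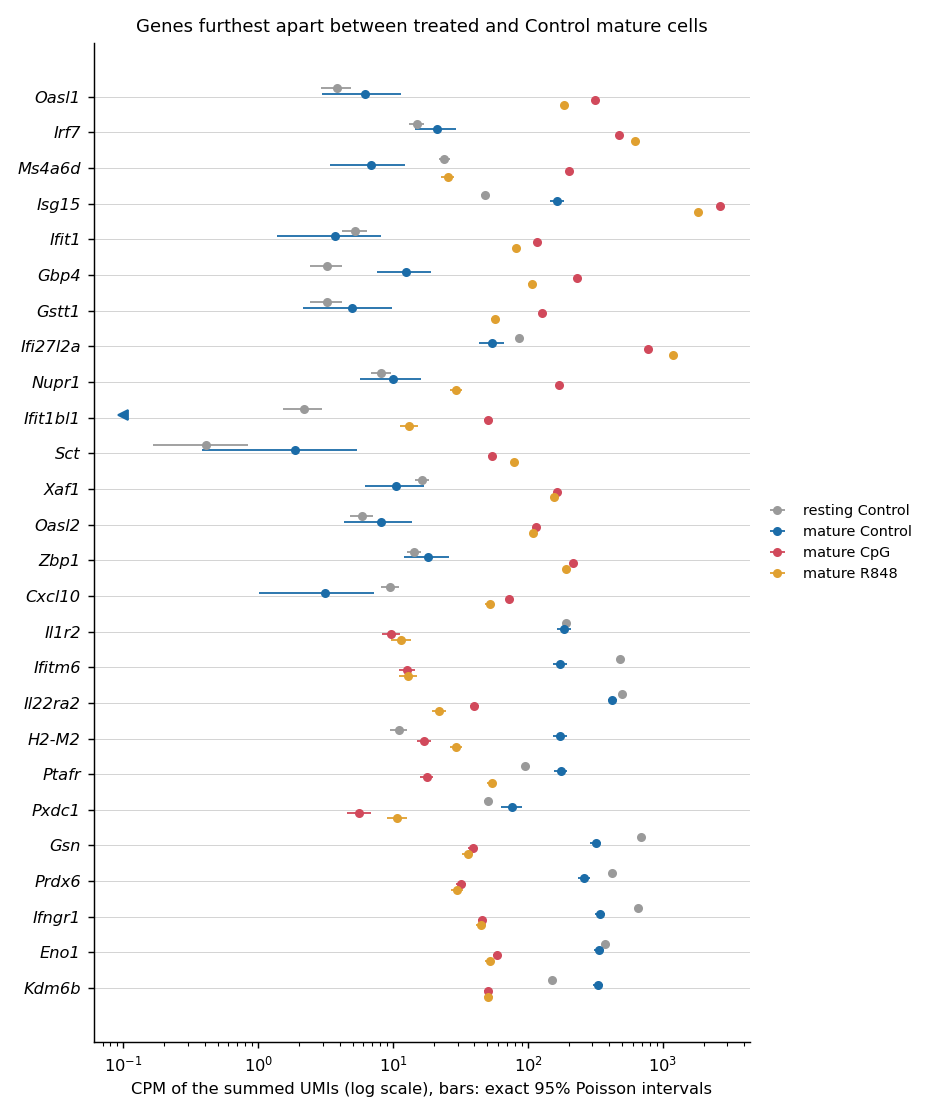
Levels in CPM (x axis, log scale) of the genes named for the comparison of mature cells of the treated libraries with mature Control cells, with resting Control cells beside them and exact 95% Poisson intervals as bars; the triangle at 0.1 CPM stands for a count of 0. Irf7, Oasl1 and Isg15 lie over 10-fold above mature Control cells in both treated groups, and Il1r2 and Il22ra2 lie over 10-fold below.

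Interferon-stimulated genes led the higher genes of both treated groups: Irf7, Oasl1, Isg15, Ifi27l2a and Ifit1 were among the 10 highest log2 ratios in each. With CpG 32 of 35 measured members were higher and none lower, with a median log2 ratio of 2.07 against 0.09 over all genes measured. With R848 29 of 33 were higher and none lower, with a median of 2.11 against -0.04. Irf7 stood at 21.1 CPM (14.6 to 29.5) in mature Control cells, 473 CPM (462 to 483) with CpG and 622 CPM (609 to 636) with R848. Oasl1, an OAS-like protein, stood at 6.1996 CPM (2.97 to 11.4), 312 CPM (304 to 321) and 185 CPM (178 to 193), and Isg15 at 164 CPM (145 to 185), 2632 CPM (2608 to 2656) and 1811 CPM (1788 to 1834). Isg15 ratios were 16.0 (14.2 to 18.1) and 11.0 (9.77 to 12.5). Isg15 was found in 30.4% (25.3 to 36.0) of mature Control cells, 96.4% of mature CpG and 93.9% of mature R848 cells, and in 18.1%, 89.4% and 81.1% after thinning, while the lysozyme- or C1q-high Control cells were at 39.2%, or 12.8% after thinning. Resting Control cells were at 19.7%, or 7.62% (6.62 to 8.72) after thinning. The thinned share of mature Control cells (13.9 to 22.9) lay above that of resting cells. Its interval overlapped that of the lysozyme- or C1q-high cells (11.4 to 14.2). Ifit1bl1 had no UMI in mature Control cells and 50.1 CPM (46.8 to 53.6) with CpG, at least 21.9-fold higher by the interval of the ratio.

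The promoters of these genes were read to show what members with and without an interferon motif look like. Windows are the 250 bases before the transcription start in RefSeq on GRCm38.p6, and capitals mark matches to GAAA, any 2 bases and GAAA again, the repeat bound by interferon-activated factors, on either strand. Such matches can overlap each other.
Isg15 (chr4:156200819-156201068, minus strand): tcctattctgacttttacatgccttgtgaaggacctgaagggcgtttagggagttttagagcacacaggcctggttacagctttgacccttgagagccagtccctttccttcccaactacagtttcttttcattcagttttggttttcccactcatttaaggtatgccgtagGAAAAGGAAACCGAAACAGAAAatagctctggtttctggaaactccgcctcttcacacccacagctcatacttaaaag
Ifit1 (chr19:34640639-34640888, plus strand): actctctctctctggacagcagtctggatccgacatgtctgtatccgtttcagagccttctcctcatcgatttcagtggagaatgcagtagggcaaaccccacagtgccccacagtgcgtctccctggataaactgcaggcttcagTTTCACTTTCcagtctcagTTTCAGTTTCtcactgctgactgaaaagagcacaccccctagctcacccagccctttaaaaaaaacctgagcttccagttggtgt
Nudt17 (chr3:96708561-96708810, minus strand): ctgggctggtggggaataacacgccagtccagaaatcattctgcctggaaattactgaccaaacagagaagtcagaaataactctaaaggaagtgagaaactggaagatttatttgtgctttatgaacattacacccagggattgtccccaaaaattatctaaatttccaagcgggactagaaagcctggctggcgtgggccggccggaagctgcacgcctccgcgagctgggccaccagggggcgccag

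Isg15 holds 3 overlapping matches and Ifit1 holds 2, and Nudt17, the gene with the highest log2 ratio between mature and resting Control cells, holds none. Of all 27025 promoters in the table, 936 (3.46%) hold the motif. Of the interferon list, 29 of 41 genes had a promoter in the table and 14 of these (48.3%) hold it, as do 13 of 24 of the members higher with CpG and 11 of 22 of those higher with R848. None of the 18 mature dendritic cell core genes with a promoter holds it. The NF-kB motif, spelled GGGA, any base and TTTCC and searched on both strands, is in 0.414% of all promoters and in none of these lists, which says only that these letters are not in the windows.

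MHC genes differed in opposite directions by class. With CpG 11 of 13 class II presentation genes were lower, with a median log2 ratio of -1.81, and with R848 5 of 13 were lower, with a median of -0.84. H2-Ab1 stood at 10559 CPM in mature Control cells, 2273 CPM (2251 to 2296) with CpG and 3980.1 CPM (3946 to 4015) with R848, and Ciita, the class II transactivator, at 70.1 CPM (57.7 to 84.2), 20.7 CPM (18.6 to 22.96) and 29.6 CPM (26.7 to 32.7). Mature cells of untreated mice thus lay between resting cells and treated mature cells in H2-Ab1. Of class I presentation genes, 14 of 24 were higher with CpG and 16 of 23 with R848, with medians of 1.03 and 1.19, and H2-M2 was the 1 lower in each. Psmb8, an immunoproteasome subunit, stood at 805 CPM (762 to 850.4), 2303 CPM (2279.8 to 2326) and 1954 CPM (1929.8 to 1978), and B2m, the shared class I light chain, at 6266, 11883 and 12626 CPM.

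**Figure D5:**
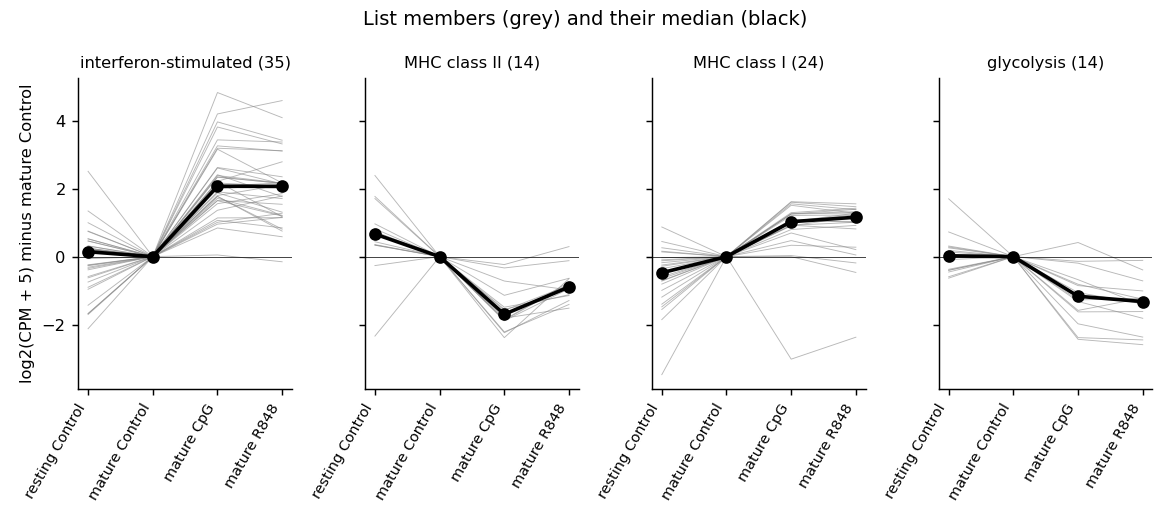
Difference of each list member from mature Control cells on the log2(CPM + 5) scale (y axis) in resting Control, mature Control, mature CpG and mature R848 cells, for the 4 lists named over the panels, with 1 grey line per gene that reached 20 CPM in 1 of the groups and the list's median in black. Most interferon-stimulated genes lie above 0 in treated cells, and most class II genes with CpG (11 of 13) and glycolysis genes with either ligand (8 and 10 of 13) are at least 2-fold lower than in mature Control cells.

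Several receptor genes were lower in treated mature cells. Il1r2 stood at 185 CPM (165 to 208) in mature Control cells, close to the 190.03 CPM (184 to 197) of resting cells, and at 9.69 CPM (8.26 to 11.3) with CpG and 11.4 CPM (9.66 to 13.4) with R848. Il22ra2, the soluble binding protein of interleukin 22 (mm10 chromosome 10, 19621998 to 19634681, plus strand), stood at 421 CPM (389.9 to 454), 39.9 CPM (36.9 to 43.0) and 21.9 CPM (19.5 to 24.7). Ifngr1, the interferon-gamma receptor chain, lies next to it (19591949 to 19610229, plus strand) and stood at 342 CPM (314 to 372), 45.8 CPM (42.7 to 49.2) and 44.98 CPM (41.4 to 48.8). The cytokine genes Tgfb1, Ltb and Il1b were lower in both treated groups: Tgfb1 stood at 132, 16.1 and 20.5 CPM, Ltb at 227, 42.2 and 64.1 CPM, and Il1b at 1292, 367 and 251 CPM. Free RNA was put at 71.3 CPM of Il22ra2 in mature Control cells, since lysozyme- or C1q-high cells held 2907 CPM of it, and at 5.79 CPM of Il1r2. Markers of cDC2 moved with these genes. All 4 measured cDC2 markers, Sirpa, Cd300a, S100a4 and Il1r2 itself, were lower with each ligand, and the 10 markers summed to 952 CPM in mature Control cells, 219 CPM with CpG and 202 CPM with R848. Cells marked cDC2 made up 24.4% of mature Control, 14.6% of mature CpG and 11.4% of mature R848 cells. Lyz2 stood at 3954 CPM in mature Control cells, 818 CPM with CpG and 780.2 CPM with R848, and Csf1r, the receptor of macrophage colony-stimulating factor, at 41.5, 9.81 and 7.70 CPM. The part of these markers in the lower receptor and cytokine genes was not tested. After thinning, Ifngr1 was found in 40.5% of mature Control, 7.34% of mature CpG and 8.24% of mature R848 cells (55.2%, 19.4% and 19.8% before thinning). In gated cells below the maturation threshold the thinned shares of Ifngr1 were 65.9% in Control, 58.8% with CpG and 51.4% with R848 (90.4%, 86.4% and 83.7% before thinning). In the same resting cells the thinned shares of Tgfb1 were 38.4%, 17.7% and 19.6%, and those of Il22ra2 35.7%, 33.0% and 20.5%. The Il22ra2 intervals overlapped between Control (33.9 to 37.6) and CpG (29.2 to 37.0). Thinned shares of Il1r2 were 21.1%, 23.4% and 20.9%, and those of Il1b 47.6%, 57.9% and 49.4%. Lower shares with a ligand were thus found below the threshold for some of these genes and not for others.

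Glycolysis genes were lower with treatment, by 8 of 13 measured members with CpG and 10 of 13 with R848, with medians of -1.27 and -1.39 and none higher. Eno1, an enolase, stood at 337 CPM (309.5 to 367) in mature Control cells, 58.5 CPM (54.9 to 62.2) with CpG and 51.9 CPM (48.0 to 56.0) with R848. Ldha stood at 482, 119 and 89.5 CPM. Gapdh did not follow them to that degree, at 909 CPM (863 to 957), 795 CPM (782 to 809) and 553 CPM (539.8 to 566).

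The treated groups were not alike in every gene that set them apart from Control. Il6 stood at 45.9 CPM (36.0 to 57.6) in mature Control cells, 222 CPM (215 to 230) with CpG and 24.98 CPM (22.3 to 27.9) with R848. Cd40 stood at 275 CPM (250.3 to 302), 828 CPM (814 to 842) and 258 CPM (249 to 267), and Aldh1a2 at 139 CPM (122 to 159), 849.8 CPM (836 to 864) and 205 CPM (197 to 213). The activating receptor Tnfrsf9, or 4-1BB, stood at 52.1 CPM (41.5 to 64.5), 394 CPM (385 to 404) and 72.2 CPM (67.6 to 77.0). In these 4 genes R848 cells lay closer to untreated mature cells than CpG cells did. Timd4, a receptor for phosphatidylserine on dying cells, was lower in both, at 78.7 CPM (65.6 to 93.7), 14.0 CPM (12.3 to 15.9) and 24.0 CPM (21.4 to 26.9). Of 20 NF-kB genes, Tnip3 was higher with CpG, none with R848, and none was lower.

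Since mature Control cells had less Ccr7 and Fscn1, the comparison was repeated in cells with 60 to 120 UMIs of both per 10000, which held 76 Control, 1327 CpG and 1152 R848 cells with medians of 77.2, 91.4 and 83.2. In this range 9.15% of 4439 genes were higher and 4.96% lower with CpG, and 6.23% of 4286 higher and 6.00% lower with R848. Interferon-stimulated genes were higher in 30 of 35 with CpG and 29 of 33 with R848, and Isg15 stood at 243 CPM in Control, 2619 CPM with CpG and 1923 CPM with R848. Class II genes were lower in 8 of 13 and 3 of 13, and H2-Ab1 stood at 7186, 1765 and 2466 CPM. Class I genes passed 2-fold higher in 4 of 24 and 3 of 23, against 14 and 16 without the range, with medians of 0.71 and 0.87. Il1r2 remained low at 105, 5.81 and 4.24 CPM, Ifngr1 at 188, 37.9 and 32.4 CPM and Eno1 at 241, 48.2 and 42.5 CPM. Glycolysis genes were lower in 6 of 13 with CpG, with a median of -0.58 against -1.27 over all mature cells, and in 8 of 12 with R848, with a median of -1.13. Of the core genes, 3 of 24 were higher and 4 lower with CpG, and 2 of 25 higher and none lower with R848. Apol7c, 2.12 (2.04 to 2.19) and 2.15 (2.07 to 2.23) times higher with CpG and R848 over all mature cells, had ratios of 1.19 (1.13 to 1.25) and 1.17 (1.11 to 1.23) in the range. Nudt17 ratios of 2.17 (1.98 to 2.39) and 1.63 (1.48 to 1.79) became 1.42 (1.23 to 1.65) and 1.08 (0.936 to 1.25).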

How the data were processed

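The authors deposited 1 matrix per library, which holds unnormalised counts of UMIs for every gene in every barcode. Per the submitters' processing notes, reads were processed with Cell Ranger 2.0.0 on mm10. No source used here names the annotation release. The other deposited files hold barcodes and gene names. Of 27998 genes, Itgam and Ccl19 stand under 2 identifiers each, of which the first was used.

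Counts were summed over the cells of each group and scaled to CPM in Python 3.11.15 with numpy 2.4.6, scipy 1.17.1 and pandas 2.3.3. Log2 ratios took 5 CPM added to both levels. No doublets were removed, as the gate has no such step. A score for them was the share of simulated doublets (2 for each cell) among the 50 cells nearest in expression; the top 0.8% for each 1000 cells of a library were marked, and removed as an alternative. Depth was matched by thinning cells to 2000 UMIs. The ratios, calls and intervals were tested on simulated Poisson counts. Those counts had no added spread between cells, so that test says nothing about such spread.

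Named genes were, per comparison, the 10 highest and 8 lowest log2 ratios among genes with at least 50 CPM and 20 UMIs in the higher group, at least 2-fold, with a ratio interval that leaves out 1. Gate genes, receptor and immunoglobulin segments, haemoglobin, ribosomal, mitochondrial and unnamed genes were not eligible. Described list members and the 10 highest Fano factors were added. The gate, the 22 gene lists and 17 marker lists, the rule and the alternatives were chosen with earlier results of these data known. Coordinates are from GENCODE M21 and promoters from RefSeq, both on GRCm38.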

Additional observations from a re-analysis of the deposited data

How the results depend on the processing

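No paired analysis was possible because each group had 1 library and no replicate, which also leaves no replicate to leave out. Counts were recomputed under 14 other settings and 1 range chosen after seeing the data (60 to 120 UMIs of Ccr7 and Fscn1), shares of mature cells under 7 and lineage marks under 1. Of the 294 values, 258 stayed within 1.5 times the reported count or within the interval of the share, and 36 did not. The balance of calls turned in some settings, since 431 genes were higher and 587 lower against resting cells, and 265 and 306 with R848. Of 810 log2 ratios of named genes, 489 stayed within their interval and 321 did not, with none reversed. With 20 CPM added, genes higher and lower than in resting cells numbered 283 and 257, genes lower with CpG 143, genes higher and lower with R848 152 and 130, and class II genes lower with R848 3. A minimum of 100 CPM tested fewer genes and left 203 and 136 against resting cells, 211 and 100 with CpG, and 113 and 96 with R848. It also left 2 uptake receptors lower, 16 and 13 interferon-stimulated genes higher with CpG and R848, 5 glycolysis genes lower with CpG and 3 class II genes lower with R848. With mature cells cut at 30, class I genes higher numbered 9 with CpG and 10 with R848. In cells of 60 to 120, 1042 genes were lower than in resting cells, class I genes higher numbered 4 and 3, and class II genes lower with R848 3; the 76 Control cells there give wider intervals. Among cDC1-marked cells, of which Control had 31, 3 uptake receptors were lower and 678 and 521 genes were higher with CpG and R848. Among cDC2-marked cells 1 class II gene was lower with R848. The share of mature Control cells was 12.2% with a threshold of 10, 7.15% with 30, 12.6% where both genes were required and neither allowed in resting cells (93.5% with CpG, 88.0% with R848) and 11.7% without the Il12b step. Thinning gave 5.02% cDC1-marked, 11.4% cDC2-marked and 82.9% unmarked cells. Median-of-ratios scaling moved the median log2 ratio against resting cells from -0.15 to -0.04, and 503 genes were then higher and 495 lower. Taking 5% of the library profile away as free RNA moved the log2 ratio of Il22ra2 with CpG from -3.25 to -6.15. It took away all Il22ra2 in CpG and R848 cells, so -6.15 reflects the Control level and the 5 CPM added. The 5% is also above the 2.51% and 2.47% put as free RNA in those cells. For other causes of these shifts, the cause was not tested. Depth limits low genes: 3 UMIs among the 1613002 of mature Control cells are 1.86 CPM.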

Other observations

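Levels of other genes in mature and resting Control cells follow. Fabp5, a fatty acid binding protein, stood at 3557 CPM (3466 to 3651) in mature and 308 CPM (299 to 316) in resting Control cells, and at 3315 and 2953 CPM with CpG and R848. It was chosen after its values were seen. Of 24 measured lysosomal hydrolases 8 were lower, and Lgmn, an asparaginyl endopeptidase that cuts antigen, was higher, at 303 CPM (276 to 331) against 45.3 CPM (42.1 to 48.6). Naaa and Ppt1, among the 8, were already counted as cDC1 markers. Over all genes measured, 12.2% were lower and 8.97% higher, and these shares also apply to the lists that follow in this paragraph. Cholesterol synthesis and uptake genes had 2 of 14 members higher (Hmgcs1 and Idi1) and none lower, near the 8.97% of all measured genes that were higher, with a median log2 ratio of 0.80 against -0.15 over all genes. Among 26 transcription factors 7 were higher, such as Etv3, at 483 CPM (449.6 to 518) against 90.1 CPM (85.6 to 94.7), and 5 lower, such as Runx3, at 99.2 CPM (84.4 to 116) against 414 CPM (405 to 424). The receptor gene Il7r stood at 89.9 CPM (75.9 to 106) against 13.2 CPM (11.6 to 15.1).

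Of 3 measured genes of neuropeptide and secretin signalling, Sct was at least 2-fold higher with CpG, and Sct and Ramp3 with R848. Sct, which encodes the gut hormone secretin (mm10 chromosome 7, 141278330 to 141279133, minus strand), had 3 UMIs in mature Control cells, or 1.86 CPM (0.384 to 5.44), and stood at 54.3 CPM (50.9 to 58.0) with CpG and 79.1 CPM (74.4 to 84.2) with R848. The R848 ratio was 42.6 (14.5 to 207). Ramp3, a receptor activity-modifying protein, stood at 5.86 CPM (4.77 to 7.12) in resting and 86.8 CPM (73.0 to 102) in mature Control cells, and at 170.1 CPM (164 to 176) and 437 CPM (426 to 449) with CpG and R848. Kdm6b, a histone H3 demethylase, was higher in mature than in resting Control cells and lower with treatment, at 149.8, 329, 50.1 and 50.8 CPM in resting Control, mature Control, CpG and R848. Ptafr, the receptor of platelet-activating factor, stood at 94.96, 174, 17.7 and 53.7 CPM in the same order.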
